A study of Homo sapiens with 8 samples.

Results

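RNA polymerase I and RNA polymerase III are described here through 30 genes for their subunits and initiation factors, out of 52576 genes in the expression table. They were picked by symbol from the known makeup of the enzymes, with earlier results of these data known. Of the 30 genes, 12 serve Pol I alone, 16 serve Pol III alone, and POLR1C and POLR1D encode a pair of subunits that both enzymes share. NCI-H2009 is an established human lung adenocarcinoma cell line, and all 8 libraries came from such cells after transfection with dCas9-KRAB, a DNA-binding Cas9 without nuclease activity joined to the KRAB repressor domain. The 4 groups of 2 libraries differed in the guide RNA given afterwards, which was no guide, a guide with no target in the human genome, or 1 of 2 different guides (e3 #1 and e3 #2) to an enhancer named e3. The no-guide and non-targeting libraries are called the controls below, and the libraries with an e3 guide the e3 libraries.

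Pol I transcribes a single kind of gene, the repeated ribosomal DNA that yields the precursor of the large ribosomal RNAs. Its promoter is marked by UBTF, bound by the selectivity factor SL1 (TBP with the TAF1 proteins) and joined to the polymerase through RRN3. Pol III makes transfer RNAs, 5S ribosomal RNA and other short RNAs, and is brought to its genes by TFIIIC, which recognizes the internal promoter, and by TFIIIB (TBP, BDP1 and BRF1 or BRF2), which positions the enzyme. Both systems supply the parts of ribosomes and translation, and both are known to follow cell growth and the transcription factor MYC.

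MYC, downstream of which e3 lies, was measured at 72.7 to 90.1 RPKM in the controls and 36.2 to 43.4 RPKM in the e3 libraries. RPKM are reads scaled to the length of the gene model and to the size of the library, so they compare genes per length and libraries per depth. Its log2 difference was -1.02 (limma, adjusted p = 0.00215), and its part in the differences of the polymerase genes was not tested. The depth inferred from the steps between low values was 3868201 to 5743922 reads per library. The no-guide libraries stood apart from the other 6 on the first principal component, which held 38.9% of the variance (-36.9 and -38.3 against 5.74 to 18.5), so the e3 libraries together are also set against each control alone for the 30 genes. The single guides and the genes outside the 30 are given against the controls together unless stated. Epithelial markers were high in every library (KRT19 at 1009 to 1364 RPKM, EPCAM at 211 to 254 RPKM). Of the 6 listed, 3 were above 0 and 3 below with the e3 guides. Only CDH1 passed an adjusted p of 0.05, when 5.2% of all genes did (limma). CDH1, or E-cadherin, rose by 0.23 on the log2 scale (limma, adjusted p = 0.032), while EPCAM was at -0.17 (adjusted p = 0.0866). With guide 2 alone 2 of the 6 passed as higher and 3 as lower, when 14.5% of all genes passed and 7.62% passed as lower. With the non-targeting guide relative to no guide, 4 passed as lower, when 12.4% of all genes passed in either direction. The lung lineage factor NKX2-1 was high as well (23.2 to 43.2 RPKM). The surfactant gene SFTPC, the lung lineage genes SFTPA1 and SCGB1A1, the fibroblast genes COL3A1 and DCN and the lymphocyte genes CD3E and MS4A1 were listed at 0 in all 8. COL1A1, also on the fibroblast list, was at 3.18 to 5.53 RPKM in the controls and 5.55 to 6.68 RPKM in the e3 libraries (log2 difference 0.40, limma adjusted p = 0.141), and it passed against no guide alone (0.59, adjusted p = 0.0329). COL1A2 was at no more than 0.23 RPKM in the controls and at 0.38 to 0.60 RPKM in the e3 libraries. CD68, on the leukocyte list, was at 12.2 to 31.8 RPKM. It rose by 0.78 on the log2 scale with the e3 guides (limma, adjusted p = 0.0447), but the controls differed in it too. CD68 measured 12.2 to 13.7 RPKM in the no-guide libraries, 21.6 to 23.7 RPKM in the non-targeting ones and 28.3 to 31.8 RPKM in the e3 libraries. Between the controls it passed as higher in the non-targeting libraries, at 0.76. The e3 difference was 0.40 against the non-targeting guide alone (adjusted p = 0.0257) and 1.16 against no guide alone (limma). The part of these markers in the results below was not tested. The other 4 genes of the leukocyte list were at 0.45 RPKM or less, with PTPRC, the pan-leukocyte marker, at no more than 0.05 RPKM. Nothing in the labels says whether libraries within a group are separate cultures, so p-values here reflect the spread among these libraries only, possibly a technical one.

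The promoter sequence of 26 of the 30 genes was matched in the RefSeq table (GRCh38.p14), from 250 bases before to 50 bases after the first listed start. No entry was found for POLR1E, POLR3D, POLR3G and BRF2. The E-box CACGTG, the palindromic site that MYC with its partner MAX and other factors of the same class can bind, was present in 6 of the 26 windows (23.1%), against 10.4% of 9442 promoters of tested genes and 7.43% of all 27305. Only 1 of the 6 is a Pol I gene, and the other 5 are Pol III genes. The sequences are shown because they hold this site, in capitals, within 30 bases on the strand of the gene. They lie at chr19:45406620-45406649 on the plus strand for CD3EAP, chr10:78029533-78029562 on the minus strand for POLR3A, chr1:145823992-145824021 on the plus strand for POLR3C, chr16:22297396-22297425 on the plus strand for POLR3E, chr2:27356850-27356879 on the minus strand for GTF3C2 and chr9:132669988-132670017 on the plus strand for GTF3C4.
CD3EAP: cccctttggatcCACGTGgtctgcaacctg
POLR3A: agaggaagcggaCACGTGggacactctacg
POLR3C: gcccgcgtcggtCACGTGagttggccaggc
POLR3E: cccgctccccccCACGTGtccgccggagtt
GTF3C2: ccggaccaagcaCACGTGtttaccttgtgc
GTF3C4: ggcccgggacccCACGTGggacgcgcgagg
The site began 12 bases before the start in CD3EAP, 35 in POLR3A and in GTF3C4, 103 in GTF3C2, 196 in POLR3C and 1 in POLR3E.

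CACGTG reads the same on both strands. The related letters CACGCG, which differ from it in 1 base and were searched on both strands, were found in 10 of the 26 windows (38.5%), against 18.6% of the promoters of tested genes. RRN3 and UBTF are shown as examples that hold it shortly before the start, at chr16:15094337-15094366 and chr17:44220880-44220909, both on the minus strand. Other members held it at similar distances, with the first base at 15 from the start in POLR1A, -21 in POLR1C and 7 in POLR3C. In UBTF the match is the reverse complement, so the capitals read CGCGTG. The letters CCGGAAG, the core that ETS family factors recognize, were in 13 of the 26 windows on either strand (50%), against 20.6% of the promoters of tested genes. POLR1B (chr2:112541899-112541928, plus strand) and TAF1D (chr11:93741542-93741571, minus strand) are shown with it, because they were called lower in comparisons below and hold no E-box in the window.
RRN3: atacgccctcccCACGCGgggccgctgatt
UBTF: ggcggagcgcggCGCGTGgggctcgccatt
POLR1B: aggcctccagtCCGGAAGatgcgacgaggt
TAF1D: tcgccttcttcCCGGAAGctaagttgtatc
These matches are a description of the letters in the windows.

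All 30 genes reached the minimum for testing, an average of 1 RPKM across libraries, which 13979 genes met in all. The mean levels of the Pol I genes ran from 4.03 RPKM for TAF1A to 27.3 RPKM for CD3EAP, with a median of 10.9 RPKM. Those of the Pol III genes ran from 2.96 RPKM for POLR3F to 34.5 RPKM for GTF3C5, with a median of 8.63 RPKM. The median of all tested genes was 8.17 RPKM. Both sets thus held genes of ordinary abundance, with the TFIIIC subunits GTF3C2 and GTF3C5 (84.9th and 85.3rd percentile of tested genes) the most abundant of the 30. The Pol III core spanned a wide range, from POLR3F at the 21.8th percentile and the catalytic pair POLR3B and POLR3A at the 22.6th and 40.1st to POLR3C at the 78.3rd. The TFIIIB genes BRF2, BRF1 and BDP1 were at the 27.3rd, 29.3rd and 45.0th.

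**Figure D1:**
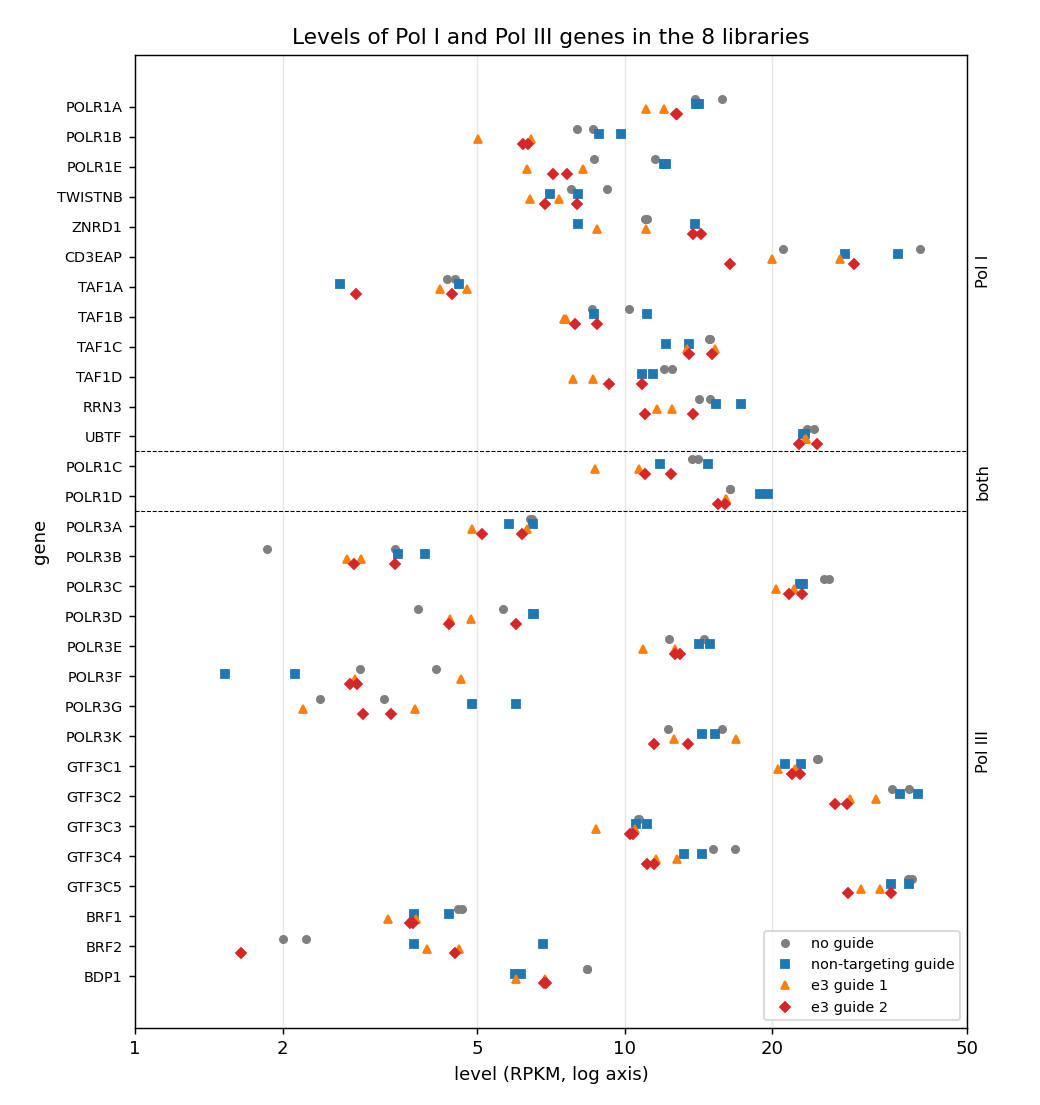
Level of each of the 30 genes in the 8 libraries, in RPKM on a log axis, with 1 point per library and the groups by colour and shape; the genes are ordered as Pol I, shared and Pol III. POLR3F, POLR3B, POLR3G and BRF2 have the lowest mean levels of the 30, and GTF3C2 and GTF3C5 the highest.

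The largest subunit carries the catalytic centre, and its mRNA level can be compared among the 3 nuclear polymerases. The amount or activity of the enzymes was not measured. POLR1A was 1.75 to 2.51 times the level of POLR3A in the 8 libraries, and POLR2A, the largest subunit of Pol II, was 3.90 to 5.08 times that of POLR1A. The order POLR2A, POLR1A, POLR3A held in every library. The second largest subunits followed the same order, with POLR1B at 1.85 to 4.64 times POLR3B and POLR2B at 3.92 to 7.95 times POLR1B. In the ratio of POLR1B to POLR3B the value of 4.64 came from the first no-guide library, where POLR3B was at 1.85 RPKM against 2.71 to 3.90 RPKM elsewhere.

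The depth behind these levels was modest and uneven. The inferred number of reads for one of the 30 genes in a library ran from 6 to 1038, with a median of 154. Gene models in the table were shorter than the annotated exons for some members, as implied by the size of 1 read in RPKM. That of CD3EAP was 142 bases, 3.9% of its exon length in GENCODE 29, where it overlaps ERCC1 on the other strand, so its high level rests on 10 to 24 reads. BRF2 had a model of 853 bases (30.9%) and 6 to 27 reads, and ZNRD1 one of 866 bases (23.6%). The values of these 3 genes are uncertain for that reason, and so are those of RRN3, which has near-identical pseudogene copies that reads can be split among.

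Against the controls, the e3 libraries held less RNA of a few members, and no member passed the test as higher. Of the 30 genes, 3 fell (POLR1B and POLR1E of Pol I and GTF3C2 of Pol III), 0 rose and 27 did not pass an adjusted p of 0.05 (limma over 13979 genes). Over all genes tested 5.2% were called, 2.58% lower and 2.63% higher. By system, 2 of 12 Pol I genes, 0 of the 2 shared genes and 1 of 16 Pol III genes were called, and the Pol III count is near the share of all genes called. With the replicate number as a block the calls of GTF3C2 (limma, adjusted p = 0.0557) and POLR1B are lost. Without the variance trend those of GTF3C2 and POLR1E are lost. Of 16 alternative settings, GTF3C2 was called in 7, POLR1B in 6 and POLR1E in 5. At an unadjusted p under 0.05, 10 of the 30 genes were lower and 0 higher, against 11.3% of all genes lower. The difference was below 0 in 25 of the 30, against 53.4% of all genes, and the 4 e3 libraries lay below the 4 controls without overlap in 8 genes, against 7.51% of all genes. The median log2 difference was -0.24 for Pol I genes and -0.15 for Pol III genes, beside -0.02 for all genes tested. Leaving out 1 library at a time left 2 of the 3 called without the second no-guide library, 1 without the first no-guide or the second guide 1 library, and 0 without any of the other 5, with POLR1B at -0.53 to -0.42, POLR1E at -0.64 to -0.47 and GTF3C2 at -0.40 to -0.31 throughout. With a correlation estimated within groups (0.322) none of the 3 passed (adjusted p = 0.0995, 0.128 and 0.0964, limma). In bulk RNA, fewer cells of a type and less RNA per cell cannot be told apart.

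**Figure D2:**
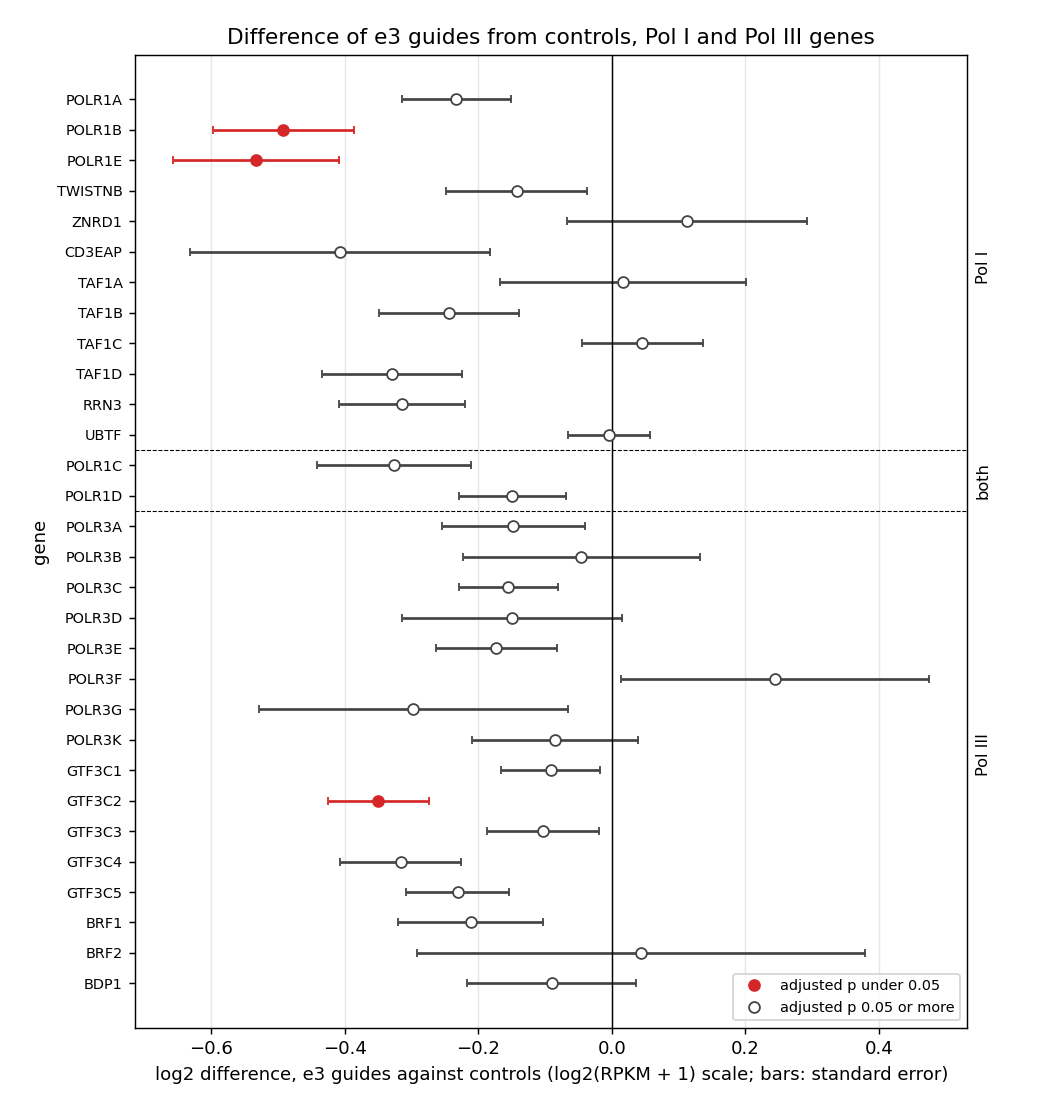
Log2 difference of the 4 e3 libraries from the 4 control libraries for each gene, on the log2(RPKM + 1) scale, with standard errors as bars and filled points for an adjusted p under 0.05. POLR1B, POLR1E and GTF3C2 are the 3 filled points, and 25 of the 30 points lie left of 0.

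POLR1B (ENSG00000125630.10, chromosome 2), the second largest Pol I subunit and partner of POLR1A in the active site, measured 8.60 and 7.99 RPKM in the no-guide libraries and 8.86 and 9.82 RPKM in the non-targeting ones. In the guide 1 libraries it measured 5.02 and 6.42 RPKM, and in the guide 2 libraries 6.35 and 6.19 RPKM. All 4 e3 libraries were below all 4 controls, and the first library of guide 1 was the lowest. The mean fell from 8.82 ± 0.76 to 5.99 ± 0.66 RPKM (SD, n = 4 each), a log2 difference of -0.49 ± 0.11 (SE; limma, adjusted p = 0.0318). The exact two-sided permutation test gave p = 0.0286, the smallest that 70 arrangements of 8 libraries allow. It takes the 8 libraries as exchangeable, although they form 4 groups of 2. Any gene without overlap gets this same value, GTF3C3 included (limma, adjusted p = 0.522), so it only restates the lack of overlap.

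POLR1E (ENSG00000137054.10, chromosome 9) encodes a subunit of the peripheral heterodimer of Pol I with CD3EAP, which takes part in initiation and elongation. It measured 8.65 and 11.5 RPKM in the no-guide libraries, 12.02 and 12.13 RPKM in the non-targeting libraries, 6.30 and 8.22 RPKM in the guide 1 libraries and 7.13 and 7.61 RPKM in the guide 2 libraries. The groups did not overlap, but the first no-guide library, at 8.65 RPKM, was close to the highest e3 library. The log2 difference was -0.53 ± 0.12 (SE; limma, adjusted p = 0.0405; exact permutation p = 0.0286). CD3EAP, its partner, had 31.3 ± 8.49 RPKM in the controls and 23.3 ± 6.12 RPKM in the e3 libraries (SD, n = 4 each), and its 95% confidence interval of -0.91 to 0.10 on the log2 scale was the widest of the Pol I genes. All intervals given below are of this kind, from limma.

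The remaining core subunits of Pol I were not called. POLR1A, the catalytic subunit, was at 15.78, 13.89, 14.17 and 13.96 RPKM in the controls and 11.06, 12.01, 12.73 and 12.80 RPKM in the e3 libraries. These values did not overlap, yet the log2 difference of -0.23 ± 0.08 had an adjusted p of 0.132 (limma). TWISTNB, a stalk subunit now also named POLR1F, had a log2 difference of -0.14 (interval -0.38 to 0.10), and ZNRD1, the small zinc-ribbon subunit that takes part in RNA cleavage, one of 0.11 (interval -0.29 to 0.51). The median over the 6 core subunits was -0.32, with 5 of 6 below 0. The pair shared with Pol III, which forms the assembly platform of both enzymes, was at -0.33 for POLR1C (adjusted p = 0.135, limma) and -0.15 for POLR1D (interval -0.33 to 0.03).

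Among the Pol I initiation factors none was called, and the members differed. RRN3, the factor that makes the polymerase competent to initiate, measured 14.92 and 14.19 RPKM in the no-guide libraries, 17.27 and 15.36 RPKM in the non-targeting libraries, 11.64 and 12.50 RPKM in the guide 1 libraries and 10.98 and 13.79 RPKM in the guide 2 libraries. The groups did not overlap, and the log2 difference was -0.31 ± 0.09 (limma, adjusted p = 0.0876). UBTF, the HMG-box protein that coats active ribosomal DNA, stayed between 22.7 and 24.6 RPKM in all 8 libraries. Its controls (23.6 ± 0.55 RPKM) and e3 libraries (23.5 ± 0.81 RPKM; SD, n = 4 each) overlapped throughout, with an interval of -0.14 to 0.13 on the log2 scale. The 4 SL1 subunits had a median of -0.11. TAF1D (-0.33, adjusted p = 0.103) and TAF1B (-0.24, adjusted p = 0.211) were below 0 in the limma test, and TAF1A (0.02) and TAF1C (0.05) were just above it. TAF1D reads may include those of the small nucleolar RNAs it hosts, and its gene model in the table spanned 32.0% of its annotated exons.

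**Figure D3:**
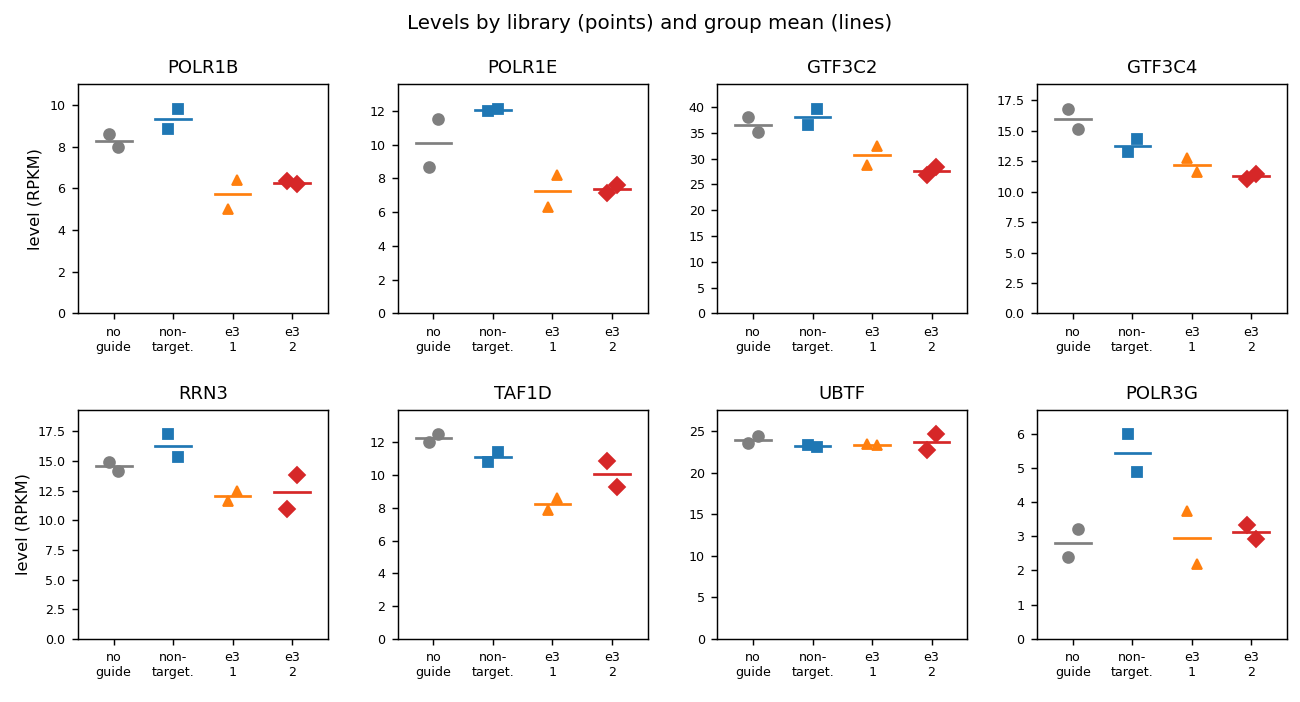
Levels of 8 genes in RPKM in the 4 groups, with 1 point per library and a line at the mean of each group of 2; each axis starts at 0. The e3 libraries lie below every control in POLR1B, POLR1E, GTF3C2, GTF3C4 and RRN3, UBTF is level between 22.7 and 24.6 RPKM, and POLR3G is high only with the non-targeting guide.

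On the Pol III side the single called gene was a subunit of TFIIIC, the factor that reads the internal promoter. All 5 TFIIIC subunits were below 0, with a median of -0.23, and 3 of the 5 had an unadjusted p under 0.05. GTF3C2 (ENSG00000115207.8, chromosome 2), a subunit of the arm that binds the B box, measured 38.1 and 35.2 RPKM in the no-guide libraries, 36.5 and 39.7 RPKM in the non-targeting libraries, 28.9 and 32.5 RPKM in the guide 1 libraries and 26.8 and 28.4 RPKM in the guide 2 libraries. Every e3 library was below every control. The mean fell from 37.3 ± 1.94 to 29.1 ± 2.42 RPKM (SD, n = 4 each; log2 difference -0.35 ± 0.08, limma adjusted p = 0.0322; exact permutation p = 0.0286). Its annotated exons overlap the antisense gene GTF3C2-AS1, and whether the counting used strand is not given in the sources used here.

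GTF3C4, the TFIIIC subunit with histone acetyltransferase activity, measured 16.8 and 15.1 RPKM in the no-guide libraries, 13.2 and 14.4 RPKM in the non-targeting libraries, 12.8 and 11.6 RPKM in the guide 1 libraries and 11.1 and 11.5 RPKM in the guide 2 libraries. The groups did not overlap, though the first non-targeting library lay just above the highest e3 library, and the log2 difference was -0.32 ± 0.09 (limma, adjusted p = 0.0763). GTF3C5, in the arm that contacts the A box, was at -0.23 (adjusted p = 0.117), GTF3C3, the subunit that recruits TFIIIB, at -0.10 (adjusted p = 0.522) and GTF3C1, the largest and DNA-binding subunit, at -0.09 (adjusted p = 0.518, limma). GTF3C3 also had no overlap between groups, but only narrowly, with 10.52 RPKM in the lowest control and 10.48 RPKM in the highest e3 library.

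None of the 8 core subunits of Pol III listed here passed, and none had an unadjusted p under 0.05 (limma). Their median was -0.15, with 7 of 8 below 0. POLR3A, the catalytic subunit, measured 6.40, 6.46, 5.81 and 6.48 RPKM in the controls and 6.30, 4.86, 6.16 and 5.10 RPKM in the e3 libraries. The groups overlapped, with means of 6.29 ± 0.32 and 5.61 ± 0.73 RPKM (SD, n = 4 each; interval -0.39 to 0.09 on the log2 scale). POLR3B, which completes the active site with POLR3A, was at -0.05 (interval -0.44 to 0.35). The pair POLR3D and POLR3E, which forms a peripheral heterodimer, was at -0.15 and -0.17, and POLR3K, the small subunit for termination and cleavage, at -0.09. In the trimer that contacts TFIIIB, POLR3C was at -0.15 (interval -0.32 to 0.01), POLR3F at 0.24 (interval -0.27 to 0.76) and POLR3G at -0.30 (interval -0.81 to 0.22). These intervals are wide, and POLR3F and POLR3G were among the least abundant of the 30. TFIIIB had a median of -0.09, with BRF1 at -0.21 (adjusted p = 0.288), BDP1 at -0.09 (adjusted p = 0.73) and BRF2, the version for promoters outside the gene, at 0.04 (interval -0.71 to 0.80).

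Read against the promoter sequences shown above, the 6 genes with an E-box had a median log2 difference of -0.24 (range -0.41 to -0.15) and the 20 genes without one a median of -0.12 (range -0.49 to 0.24). Of the 3 called genes, GTF3C2 held the E-box, POLR1B did not, and POLR1E had no entry. The 10 genes with CACGCG had a median of -0.16 and the 16 without it one of -0.15. The 13 with CCGGAAG had a median of -0.24 and the 13 without it one of -0.14.

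Each e3 guide was also compared alone with the controls, and POLR1B was called with both. These comparisons share the 4 control libraries, so they are not independent. In both, the number of the 30 genes called is near the share of all genes called. With guide 1, 2 of the 30 genes were called, both lower, when 8.99% of all genes were called and 4.03% were called lower. These were POLR1B (-0.55 ± 0.12, adjusted p = 0.0268) and TAF1D (-0.46 ± 0.10, adjusted p = 0.0265). With guide 2, 4 of the 30 were called, all lower, when 14.5% of all genes were called and 7.62% were called lower. They were GTF3C2 (-0.42 ± 0.08, adjusted p = 0.00889), GTF3C4 (-0.37 ± 0.09, adjusted p = 0.0306), POLR1E (-0.52 ± 0.14, adjusted p = 0.0452) and POLR1B (-0.43 ± 0.12, adjusted p = 0.0479), all by limma. POLR1E missed the threshold with guide 1 at nearly the same size (-0.55 ± 0.14, adjusted p = 0.0508), and GTF3C2 did so at -0.28 (adjusted p = 0.0634). Without 1 library, 0 to 2 genes were called with guide 1 (0 without the second no-guide, either non-targeting or the first guide 1 library, 1 without the first no-guide library, which was POLR1E, and 1 without the second guide 1 library, POLR1B). With guide 2 there were 0 to 4 (0 without its first library, GTF3C2 alone without its second or the second non-targeting library, and 2 without either no-guide library, all lower). Without the first non-targeting library GTF3C2 was called lower and ZNRD1 higher with guide 2.

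TAF1D measured 7.84 and 8.62 RPKM in the guide 1 libraries and 10.84 and 9.27 RPKM in the guide 2 libraries, against 12.03 and 12.49 RPKM in the no-guide libraries and 10.81 and 11.39 RPKM in the non-targeting ones. Its guide 1 libraries were below all others, and 1 guide 2 library lay among the non-targeting values. Tested against each other, the guides differed in none of the 30 genes, at an adjusted p or at an unadjusted p under 0.05, when 0.0286% of all genes were called (limma). The guide 2 value minus the guide 1 value ran from -0.46 for BRF2 to 0.47 for ZNRD1. For TAF1D the difference was 0.26 (interval -0.00 to 0.52), and for POLR1C, which was at -0.45 with guide 1 and -0.20 with guide 2, it was 0.25 (interval -0.07 to 0.58). For GTF3C2 it was -0.15 (-0.35 to 0.06), an interval that includes guide differences nearly as large as the effects themselves.

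The e3 libraries were then set against each control alone. Against the non-targeting guide, 3 of the 30 genes fell, when 6.84% of all genes were called and 3.54% were called lower. They were POLR1E (-0.66 ± 0.12, adjusted p = 0.0194), POLR1B (-0.57 ± 0.13, adjusted p = 0.0376) and GTF3C2 (-0.38 ± 0.09, adjusted p = 0.0446). The median was -0.23 for Pol I genes, -0.17 for Pol III genes and 0.00 for all genes. Against no guide, 2 of the 30 fell, when 16.7% of all genes were called and 8.03% were called lower. This count is below the share of all genes called, and both genes were TFIIIC subunits. They were GTF3C4 (-0.41 ± 0.10, adjusted p = 0.0222) and GTF3C2 (-0.32 ± 0.09, adjusted p = 0.0438), while POLR1B (-0.42, adjusted p = 0.0609) and POLR1E (-0.41, adjusted p = 0.0959) did not pass (limma). GTF3C2 alone was called against either control, and the e3 libraries are common to both contrasts. Leaving out either library of the control in question left 0 called. Against the non-targeting guide there were also 0 without the first guide 2 library and 1 without the first guide 1 or the second guide 2 library, and against no guide 1 without the first library of either e3 guide (GTF3C4 for guide 1, TAF1D for guide 2). Without the second guide 2 library GTF3C4 was called lower and BRF2 higher against no guide.

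**Figure D4:**
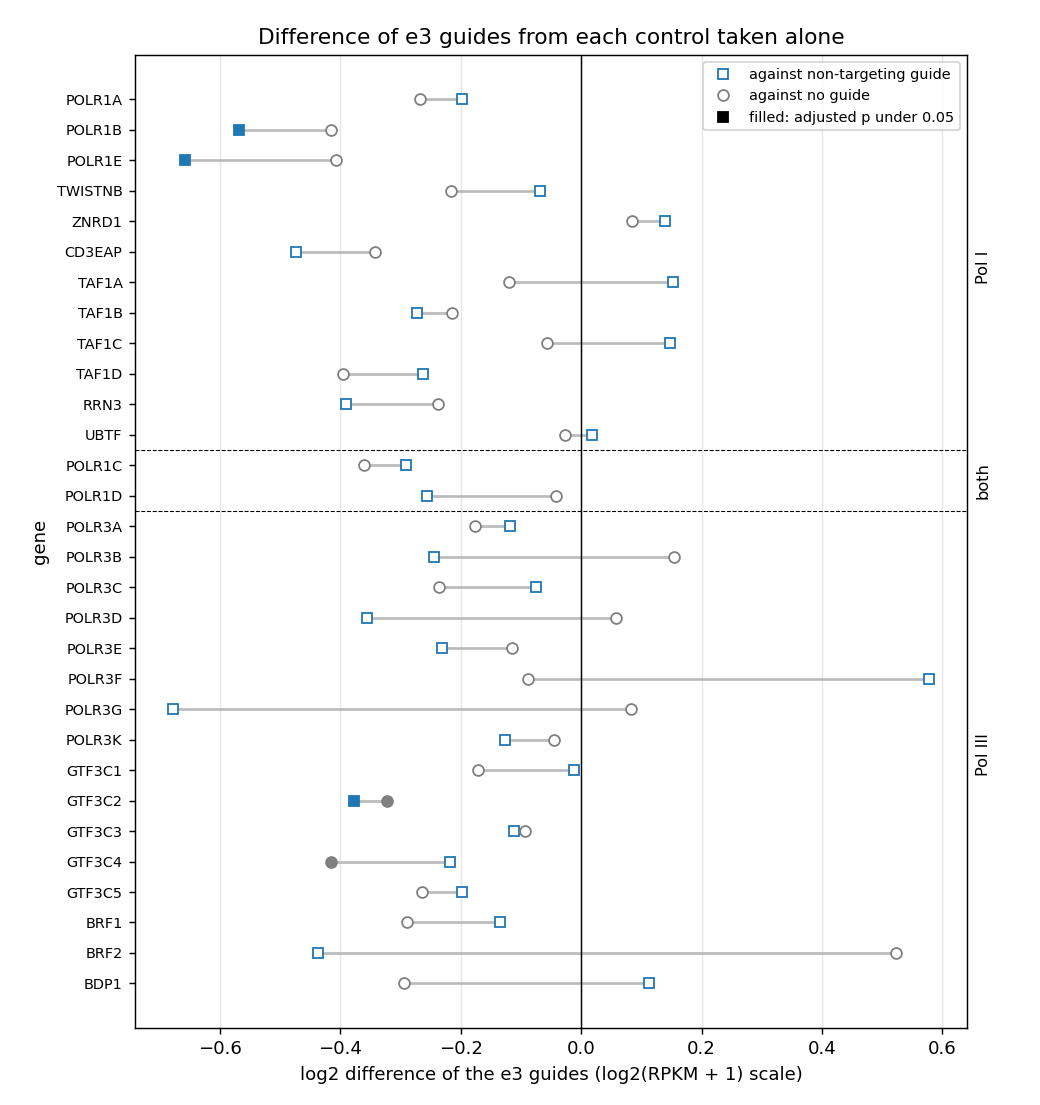
Log2 difference of the e3 libraries from the non-targeting guide (squares) and from no guide (circles) for each gene, on the log2(RPKM + 1) scale, filled where the adjusted p was under 0.05. GTF3C2 is filled for both controls, and the longest connecting lines, which mark the gap between the controls, belong to the low-abundance genes BRF2, POLR3G and POLR3F.

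The controls themselves differed in 0 of the 30 genes by the adjusted limma test, when 12.4% of all genes were called. At an unadjusted p under 0.05, 5 of the 30 differed, against 27.4% of all genes. With the non-targeting guide relative to no guide, BRF2 was at 0.96, POLR3G at 0.76 and POLR1D at 0.21, and POLR3F was at -0.67 and BDP1 at -0.41, and 4 of these 5 are Pol III genes. POLR3G measured 2.38 and 3.21 RPKM in the no-guide libraries, 5.98 and 4.86 RPKM in the non-targeting libraries, 3.72 and 2.20 RPKM in the guide 1 libraries and 3.33 and 2.92 RPKM in the guide 2 libraries. The non-targeting libraries were above all others, and the e3 values overlapped those without a guide. POLR3G was called between the controls when either guide 1 library was left out (1 of 30), and otherwise none was. POLR3F ran the other way, with 4.11 and 2.88 RPKM in the no-guide libraries, 1.53 and 2.12 RPKM in the non-targeting libraries, 4.62 and 2.82 RPKM in the guide 1 libraries and 2.84 and 2.74 RPKM in the guide 2 libraries. Against the non-targeting guide alone POLR3G was at -0.68 (adjusted p = 0.0734) and POLR3F at 0.58 (adjusted p = 0.165), and against no guide at 0.08 and -0.09 (limma). The sign of both differences thus depended on the control, with values near 0 against no guide.

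POLR3G has a paralog, POLR3GL, which takes the same place in the enzyme and is the version usual in differentiated cells. POLR3GL was the more abundant in every library, and the ratio of POLR3G to POLR3GL was 0.189 and 0.203 in the no-guide libraries, 0.267 and 0.257 in the non-targeting libraries, 0.189 and 0.138 in the guide 1 libraries and 0.142 and 0.115 in the guide 2 libraries. The non-targeting libraries had the highest ratios, and the first library of guide 1 overlapped the no-guide values. The pair was examined after its values had been seen, and POLR3GL itself was at 0.27 ± 0.18 against the controls (limma, adjusted p = 0.431). With guide 2 alone POLR3GL rose by 0.49 ± 0.13 (adjusted p = 0.0389), with guide 1 alone it was at 0.05 (adjusted p = 0.853), and between the guides at 0.44 (adjusted p = 0.361, limma).

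Around the 30 genes, the subunits common to all 3 polymerases held 0 called of 5, with a median of -0.10, and the Pol II subunits outside the other enzymes 0 called of 7 tested, with a median of -0.12, in the e3 libraries against the controls. Other genes of Pol I transcription and the nucleolus held 3 lower and 1 higher of 16, with a median of -0.30, when 2.58% of all genes were called lower and 2.63% higher. The number called lower in this list was 8 against the non-targeting guide, 4 against no guide, 8 with guide 1 and 10 with guide 2, with 1 higher in each. Over all genes tested 3.54%, 8.03%, 4.03% and 7.62% were called lower in these contrasts. NCL, the nucleolar protein nucleolin, was lower at -0.38 (adjusted p = 0.0186), NPM1, the granular-component protein nucleophosmin, at -0.36 (adjusted p = 0.0455) and NOL11, a processing factor for the ribosomal RNA precursor, at -0.27 (adjusted p = 0.0318, limma). PTRF, named as a Pol I release factor and known also as the caveola coat protein CAVIN1, rose by 0.62 (limma, adjusted p = 0.00566). In this list 7 of 16 genes differed between the controls themselves, 6 of them higher with the non-targeting guide, when 12.4% of all genes were called.

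Other genes of the Pol III system held 1 lower of 15, with a median of -0.18, when 2.58% of all genes were called lower. SSB, the La protein that binds the 3′ ends of new Pol III transcripts, was at 62.8, 62.1, 63.5 and 67.2 RPKM in the controls and 48.7, 48.3, 43.4 and 46.7 RPKM in the e3 libraries. The groups were far apart, and SSB fell by 0.44 on the log2 scale (limma, adjusted p = 0.00697). MAF1, the repressor of Pol III, was at -0.19 (adjusted p = 0.196), GTF3A, the 5S gene factor TFIIIA, at -0.26 (adjusted p = 0.0731), and TBP, part of both SL1 and TFIIIB, at -0.07 (adjusted p = 0.814, limma).

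The libraries were made from poly(A) RNA, so products of Pol I and Pol III, which mostly carry no poly(A) tail, are recorded incompletely. Of 11 Pol III products in the table, 3 reached the minimum for testing. RMRP, the RNA of the RNase MRP enzyme that cleaves the ribosomal RNA precursor, was at 9.68, 16.2, 11.4 and 11.9 RPKM in the controls and 3.48, 3.91, 5.92 and 1.77 RPKM in the e3 libraries. The e3 values were all below the controls, and RMRP fell by 1.53 ± 0.26 on the log2 scale (limma, adjusted p = 0.0126). Like CD3EAP and BRF2, RMRP rests on few reads, fewest in the e3 libraries, so the size of this difference is uncertain. RN7SK was at -0.67 (adjusted p = 0.294), with the highest and the lowest of its 8 values (21.0 and 4.23 RPKM) both in guide 2, and RN7SL1 at -0.15 did not pass either (limma).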

How the data were processed

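The deposited values were RPKM, reads scaled by the authors to gene model length and library size, per the file headers, in 1 column for each of the 8 libraries. Poly(A) selection is given in the labels' protocols, and the build hg19 and the program Cufflinks appear, with no stated use, per the submitters' processing notes. Not given in the sources used here are the aligner, the read counting, the strand setting and the annotation. Titles gave the groups and replicate numbers.

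The 30 genes were found by symbol, with the older symbols TWISTNB, ZNRD1 and CD3EAP. The members, the lists and the genes named were chosen with earlier results of these data known. The rule for named genes took all members, with every library for the called ones and the catalytic subunits, up to 3 called genes by smallest p from each other list, and POLR3GL, MAF1, TBP, GTF3A and MYC. A gene that the rule also named is not reported here. NPM1, GTF3C6, COL1A1, COL1A2, RN7SK, RN7SL1, the EPCAM difference and the library values of RRN3, UBTF, POLR3F, POLR3G and SSB were added after their values had been seen.

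Tests used limma 3.58.1 in R 4.3.3 (moderated, with a variance trend, two-sided) on log2(RPKM + 1), which understates the change of low genes, for the 13979 genes averaging 1 RPKM or more. Benjamini-Hochberg adjustment ran over all of them, and calls required an adjusted p under 0.05. The e3 libraries and the controls were compared in a model with 2 groups, and each control alone in a model of the 6 libraries concerned. Single guides, guide against guide and control against control used a model with 4 groups.

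RPKM carries no depth, so reads were inferred from the steps between low values. Values were whole multiples of 1 read to within 0.03 reads in 13978 of the 13979 genes (99.99%). The reads served to judge precision only. Gene model length was inferred likewise and set beside GENCODE 29 exon lengths. Promoters came from RefSeq (GRCh38.p14), matched by symbol or synonym, and hg19 coordinates are not used here.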

Additional observations from a re-analysis of the deposited data

Results flagged for a closer look

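In 12 of 60 groups of 4 libraries (the controls and the e3 libraries of each of the 30 genes), 1 library lay far from the other 3, judged by its gap to the nearest one as a share of the range (Dixon's 95% limit). Chance alone flags about 1 in 20 such groups. The gap was judged on the log2(RPKM + 1) scale, at both ends of each group, and the values below are in RPKM.

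In the Pol I genes, POLR1A was highest in the first no-guide library (15.8 RPKM) and POLR1E lowest there among the controls (8.65 RPKM). POLR1B was lowest in the first guide 1 library among the e3 libraries (5.02 RPKM), and TAF1A was lowest in the second non-targeting library among the controls (2.61 RPKM). The shared gene POLR1D was lowest in the second guide 2 library (15.5 RPKM).

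In the Pol III genes the values were of both kinds. Among the controls POLR3A was lowest in the first non-targeting library (5.81 RPKM) and GTF3C5 in the second (34.9 RPKM). Among the e3 libraries POLR3F was highest (4.62 RPKM) and GTF3C3 lowest (8.71 RPKM) in the first guide 1 library, POLR3E (10.9 RPKM) and BDP1 (5.997 RPKM) were lowest in the second guide 1 library, and BRF2 was lowest in the second guide 2 library (1.64 RPKM).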

How the results depend on the processing

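POLR1B, POLR1E and GTF3C2 stayed lower under every alternative tried, but whether they passed depended on it. For the e3 libraries against the controls, the numbers called among Pol I genes (2), Pol III genes (1) and all genes (727) became 0, 1 and 406 without a filter, 1, 0 and 310 without the variance trend, 0, 0 and 256 with an estimated correlation, 4, 2 and 2422 in a model with 4 groups, and 0, 0 and 1 with group means as samples. Median-ratio scaling left 1 Pol I gene. With 1 library left out they were 0 to 1, 0 to 1 and 180 to 580. A pseudocount of 0.1, a minimum mean of 5 RPKM and quantile normalization kept the counts of the 30 genes here.

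For single contrasts, the number of the 30 genes called was 2 with guide 1 (1 without a filter, 5 at a minimum of 5 RPKM, 1 without the trend, 0 to 2 without 1 library) and 4 with guide 2 (2 without a filter, 2 with median-ratio scaling, 2 without the trend, 0 to 4 without 1 library). It was 3 against the non-targeting guide (1 without a filter, 0 without the trend, 0 to 2 without 1 library) and 2 against no guide (1 without a filter, 1 with median-ratio scaling, 1 without the trend, 0 to 2 without 1 library). Between the controls it was 0 (1 without the trend, BDP1, and 0 to 1 without 1 library), and between the guides 0 throughout. The cause was not tested.

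Same-numbered libraries had deviations correlated at -0.02 to 0.01 between groups, so no shared shift was seen. These correlations cannot show whether same-numbered libraries were prepared together. With the replicate block the counts were 1 Pol I gene, 0 Pol III genes and 387 genes in all, 4 with guide 1, 3 with guide 2, and 1 against either control alone.

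Of 474 recomputed differences, 428 kept both their side and their status as called or not. Most of these 428 were of genes not called in the main test. Another 30 kept their side but lost the call, all in the 3 called genes. The call was lost in 10 of 16 settings for POLR1B, 11 of 16 for POLR1E and 9 of 16 for GTF3C2. A further 16 differences changed sign, all in 6 genes near 0. UBTF was at 0.0082 with median-ratio scaling, at 0.0037 with quantile normalization and at -0.026 to 0.012 without 1 library. Without 1 library BRF2 ran from -0.13 to 0.32, TAF1A from -0.13 to 0.15, TAF1C from -0.012 to 0.081, POLR3B from -0.22 to 0.045 and ZNRD1 from -0.017 to 0.24. Members with few reads, such as CD3EAP and BRF2, limit what these libraries can show.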
